A study of Homo sapiens with 9 samples.

Results

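The genes described here were the members of the human HOX clusters, taken as every row of the count table whose symbol was HOX, followed by a cluster letter from A to D and a paralog number. The rule found 37 of the 58884 genes of the table, with 11 in HOXA, 10 in HOXB, 7 in HOXC and 9 in HOXD. HOXC8 (ENSG00000037965) and HOXC9 (ENSG00000180806) were counted but carried no symbol in the table, so these 2 genes fell outside the rule and are given beside it.

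HOX genes encode homeodomain transcription factors that set position along the body axis in the embryo, and genes with the same paralog number in different clusters descend from a common ancestor. Within a cluster the genes lie in the order of their numbers, low numbers being used toward the head and high numbers toward the tail. Many bind DNA with partners of the TALE class, the PBX, MEIS and PKNOX proteins. Polycomb proteins keep HOX genes silent and the MLL family of histone methyltransferases keeps them active, and breast and other cancers often change which HOX genes they express.

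RNA-seq was performed on MDA-MB-231, a human breast cancer cell line of the triple-negative, claudin-low kind, here called Par. The other lines were LM2 and BrM2, sub-populations of MDA-MB-231 selected for colonizing the lung and the brain, so that all 3 groups share one origin and neither metastatic line stands for other tumors. Each line had 3 replicates harvested at separate passages, all grown for 3 days as monolayers in DMEM with fetal bovine serum and antibiotics, with no drug and no engineered allele named in the labels. The comparisons asked how cells selected for growth in each organ differ from the cells they came from, and RNA came from culture, not from the metastases.

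The 9 libraries held from 14371858 counts, in BrM2 replicate 1, to 24511786 counts, in LM2 replicate 3. Levels are given as CPM (counts-per-million after TMM scaling), and a gene with no count in any library could have been present at up to 0.016 CPM. A count of 3 in a library, taken as the floor below which no level was read, corresponded to 0.112 to 0.219 CPM. Of the receptors absent from triple-negative tumors, ESR1 had means of 0.169, 0.391 and 0.349 CPM in Par, LM2 and BrM2, and PGR means of 0, 0 and 0.0907 CPM. ERBB2 had means of 112, 86.7 and 83.2 CPM. Of 8 epithelial markers 6 were tested in edgeR, 2 fell and none rose in LM2, and 1 fell and none rose in BrM2 against Par (5 and 2 fell with the replicate number as a block). KRT19 fell in LM2 (log2 fold change -2.18, adjusted p = 0.017) and CLDN4 in both metastatic lines (-4.03, adjusted p = 0.001, and -2.26, adjusted p = 0.0093). Of 5 mesenchymal or claudin-low markers 1 rose in LM2 (3 with the block), and 1 rose and 1 fell in BrM2. VIM rose in both (1.09, adjusted p = 0.02, and 1.05, adjusted p = 0.016), while FN1 fell in BrM2 (-1.61, adjusted p = 0.00041). Of 6 markers of other cell types 2 were abundant enough to be tested and 0 passed in edgeR in either line against Par (1 in each at an unadjusted p under 0.05, and 1 and 0 by DESeq2), while with the block 1 was lower in LM2 and 2 were lower in BrM2. The leukocyte gene PTPRC stayed at or under 0.136 CPM, CD3E at or under 0.013, the endothelial gene CDH5 at or under 0.116 and the lung gene SFTPC at or under 0.0178 in every line's mean. The astrocyte gene GFAP had means of 13.5, 13.2 and 7.04 CPM and the endothelial gene PECAM1 5.13, 2.28 and 3.22 CPM. The part of these differences in the HOX results was not tested.

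Most HOX genes were not read in any of the 3 lines. No count was found in any library for 17 of the 37 members, among them HOXA3, HOXA4, HOXA5, HOXA6, HOXA9, HOXA10 and HOXA11, HOXB1 and HOXB13, HOXC11 and HOXC12, and HOXD8, HOXD9, HOXD10, HOXD11 and HOXD13. Another 6 never passed 3 counts in a library, namely HOXA2, HOXA7, HOXC5, HOXC10, HOXD3 and HOXD12. Of HOXC5 exons 67.3% overlap other genes on the same strand, where reads could not be assigned to one gene. Of HOXA7 exons 62.5% overlap HOXA-AS3 on the opposite strand, where this depends on whether the strand was counted. Low counts of HOXC5 and HOXA7 therefore need not mean low levels. HOXB was the cluster read most fully, with 8 of its 10 genes above the floor somewhere, while HOXA had a single such gene, HOXA13, at the tail end of its cluster. In HOXC these were HOXC4, HOXC6 and HOXC13, and in HOXD they were HOXD1 and HOXD4.

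**Figure D1:**
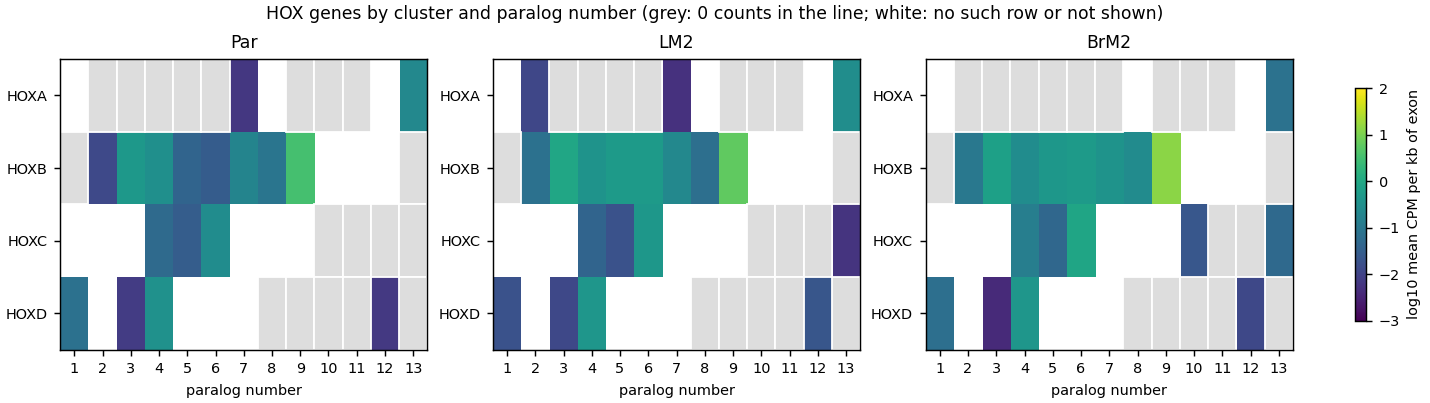
Mean level of each HOX gene in Par, LM2 and BrM2 (log10 of CPM per kilobase of exon, colour), by cluster (rows) and paralog number (columns). Grey cells had no count in any library of that line and white cells have no row with that symbol or are not shown; HOXB9 is the brightest cell in every line, at 3.37, 5.90 and 13.6 CPM per kilobase.

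HOX transcripts were together more abundant in the metastatic lines than in Par. The summed level of the members was 16.3 CPM ± 2.58 (SD, n = 3) in Par with a range of 13.5 to 18.6, 29.5 ± 4.88 in LM2 with a range of 25.8 to 35, and 49.2 ± 1.82 in BrM2 with a range of 47.2 to 50.7. The ranges of the lines did not overlap, and in RNA from whole cultures more cells with a transcript and more transcript per cell cannot be told apart. HOXB genes gave most of these counts, 82.2% ± 2.61 in Par, 86.9% ± 2.72 in LM2 and 90.6% ± 1.65 in BrM2 (SD, n = 3). HOXB9 alone gave 52.7% ± 10.3, 51% ± 7.99 and 71.5% ± 3.02. The share of HOXA, nearly all of it HOXA13, was 6.97%, 5.23% and 0.79%, and the BrM2 libraries, at no more than 1.12%, lay below every other library. This share also falls as the summed level rises. HOXA13 itself had means of 1.11, 1.42 and 0.385 CPM in Par, LM2 and BrM2, a smaller drop than that of the share.

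HOXB9 (ENSG00000170689, chromosome 17, 48621156 to 48626358 in GRCh38.p14), a posterior gene of the cluster with known expression in breast tumors, was the most abundant HOX transcript of each line. Its level was 12, 6.22 and 7.93 CPM in Par replicates 1 to 3, 21.0, 11.5 and 13.4 CPM in LM2, and 37.9, 32.5 and 35.5 CPM in BrM2. Every BrM2 library stood above every other library, whereas the lowest LM2 library lay under the highest Par library. The fold change of BrM2 over Par was 2.02 ± 0.30 on the log2 scale (SE, adjusted p = 0.0024), and it passed the threshold in 9 of 9 fits that left 1 library out. BrM2 also exceeded LM2, by 1.22 ± 0.29 (adjusted p = 0.036), a call lost without any one of Par replicate 3, LM2 replicates 2 and 3 or the BrM2 replicates (adjusted p from 0.061 to 0.15). The difference of LM2 from Par was 0.80 ± 0.29 (adjusted p = 0.15), and with the replicate number as a block it was 0.80 ± 0.16 with an adjusted p of 0.003.

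HOXB3 (ENSG00000120093, chromosome 17, 48548870 to 48590241), an anterior gene, was second in Par and LM2 by level per kilobase. It measured 2.93, 2.94 and 4.43 CPM in Par, 6.49, 6.93 and 6.48 CPM in LM2, and 4.38, 5.86 and 5.56 CPM in BrM2. The LM2 libraries lay above all others, and BrM2 replicate 1 lay just under Par replicate 3. HOXB3 was higher in LM2 than in Par by 0.94 ± 0.24 on the log2 scale (SE, adjusted p = 0.048). That call was close to the threshold and was lost in every fit without 1 library except those without Par replicate 3 or BrM2 replicate 1, with adjusted p between 0.059 and 0.2, and with no filter on low counts the adjusted p was 0.15. BrM2 differed from Par by 0.61 ± 0.24 (adjusted p = 0.16), and with the replicate block by 0.62 ± 0.20 with an adjusted p of 0.027.

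HOXB5 (ENSG00000120075, 48591257 to 48593779) and HOXB6 (ENSG00000108511, 48595751 to 48604986), neighbours 2 kb apart in the middle of the cluster, showed the sharpest contrast with Par. HOXB5 had 2, 0 and 3 counts in the Par libraries, 17, 17 and 36 in LM2, and 12, 16 and 18 in BrM2. HOXB6 had 0, 3 and 2 counts in Par, 22, 33 and 44 in LM2, and 18, 27 and 33 in BrM2. No Par library exceeded 3 counts of either gene, and no library of the metastatic lines had fewer than 12. The ratio of summed counts, scaled for depth, was 12.9 for HOXB5 in LM2 over Par, with an exact 95% interval of 5.29 to 41.1 that covers counting error only, and 10.5 in BrM2 over Par, with 4.20 to 34.0. For HOXB6 the ratios were 18.3, with an interval of 7.58 to 57.6, and 17.9, with 7.33 to 56.5.

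Both genes passed the edgeR test against Par, HOXB5 with an adjusted p of 0.0063 in LM2 and 0.007 in BrM2, and HOXB6 with 0.002 and 0.0015. They did so in 9 of 9 fits without 1 library. They entered the tested genes through the libraries of the metastatic lines, so that a gene at the floor in Par could enter only if it was higher elsewhere, and these p-values are not independent of that choice. Between BrM2 and LM2 the differences were -0.25 ± 0.45 for HOXB5 (log2 scale, SE, adjusted p = 0.83) and 0.00 ± 0.39 for HOXB6 (adjusted p = 1). Of the exons of HOXB6, 16.6% overlap HOXB3 on the same strand and 16.3% overlap the non-coding HOXB-AS3 on the opposite strand, and 3.9% of HOXB5 exons overlap HOXB-AS3. The strand that was counted is not given in the sources used here, so reads of these genes could not be told apart there.

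HOXB8 (ENSG00000120068, 48612346 to 48615292), next to HOXB9, was low throughout and highest in BrM2. Its level was 0.266, 0.237 and 0.117 CPM in Par (5, 5 and 3 counts), 0.206, 0.161 and 0.112 CPM in LM2 (4, 4 and 3 counts), and 0.584, 0.616 and 0.624 CPM in BrM2 (8, 14 and 13 counts). The BrM2 libraries lay above all 6 others, and the ranges of Par and LM2 overlapped. HOXB8 was higher in BrM2 than in Par by 1.59 ± 0.40 on the log2 scale (SE, adjusted p = 0.031) and than in LM2 by 1.93 ± 0.41 (adjusted p = 0.02). HOXB8 passed the filter on low counts in the 3 BrM2 libraries and in no other, so a gene chosen this way had to be higher there and these p-values are not independent of the choice. The first passed in 2 of 9 fits without 1 library, those without LM2 replicate 1 or 3, with adjusted p of 0.052 to 0.12 in the others, and had an adjusted p of 0.052 in DESeq2 and of 0.15 with no filter on low counts. The second was lost without LM2 replicates 2 or 3 or BrM2 replicates 2 or 3 (adjusted p from 0.068 to 0.09) and with no filter (0.078).

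**Figure D2:**
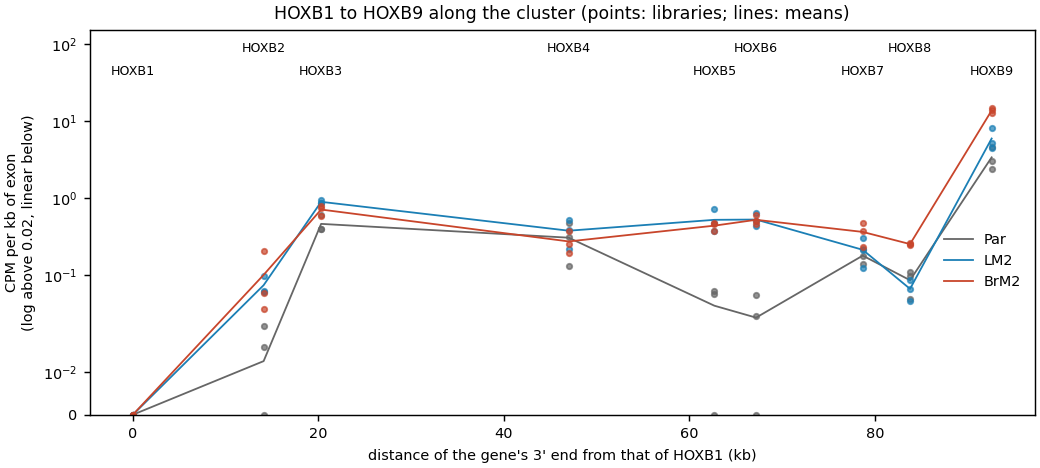
Level per kilobase of exon (CPM per kilobase, vertical axis, logarithmic above 0.02 and linear below) of HOXB1 to HOXB9, placed by the distance of each gene's 3′ end from that of HOXB1 in kilobases. Points are libraries and lines join the means of Par, LM2 and BrM2, which part at HOXB2, HOXB5 and HOXB6, where Par is low, and at HOXB8 and HOXB9, where BrM2 is high.

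HOXB2, HOXB4 and HOXB7, lying between or beside these genes, gave no call. HOXB4 (ENSG00000182742, 48575507 to 48578350), a gene used in blood stem cells, had 5, 20 and 16 counts in Par, 15, 11 and 28 in LM2, and 7, 17 and 8 in BrM2, and the 3 ranges overlapped. Its log2 differences were 0.29 for LM2 against Par (adjusted p = 0.84), -0.14 for BrM2 against Par (adjusted p = 0.92) and -0.44 for BrM2 against LM2 (adjusted p = 0.72). HOXB7 had 4 to 7 counts in Par, 5 to 9 in LM2 and 8 to 12 in BrM2, below the minimum for a test. HOXB2 had 0 to 1 count in Par, 3 to 6 in LM2 and 2 to 7 in BrM2, and was likewise not tested. From 2 counts summed over Par, 13 over LM2 and 12 over BrM2, its depth-scaled ratio to Par was 6.01 in LM2, with a counting interval of 1.36 to 54.8, and 6.87 in BrM2, with 1.53 to 63.2.

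In the HOXC cluster HOXC6 was the member that could be tested, and it rose in BrM2. HOXC6 (ENSG00000197757, chromosome 12, 54016888 to 54030823), known as an estrogen-responsive gene of mammary tissue, measured 0.852, 0.807 and 1.2 CPM in Par, 2.27, 1.41 and 1.01 CPM in LM2, and 2.48, 3.04 and 3.31 CPM in BrM2. The BrM2 libraries were above all others, and LM2 replicate 3 lay within the Par range. BrM2 exceeded Par by 1.61 ± 0.34 on the log2 scale (SE, adjusted p = 0.014), a call lost without Par replicates 1 or 2 or BrM2 replicates 2 or 3 (adjusted p from 0.053 to 0.07). HOXC6 entered the first gene set through the BrM2 libraries and 1 LM2 library, so its p-values there are not independent of that choice. It entered the wider set through all 9 libraries, and there BrM2 against Par had an edgeR adjusted p of 0.012. In the first set LM2 against Par gave 0.67 ± 0.34 (adjusted p = 0.34). BrM2 against LM2 gave 0.94 ± 0.33 (adjusted p = 0.14), which became 0.97 ± 0.31 with an adjusted p of 0.03 under the replicate block, and an adjusted p of 0.044 without LM2 replicate 1. HOXC4, HOXC5 and HOXC6 share a distal start, and 16.1% of HOXC6 exons overlap other genes on the same strand. Reads there could not be assigned to one gene.

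HOXC8, the gene without a symbol in the table, lies beside HOXC6 at 54008985 to 54012769. It measured 0.426, 0.237 and 0.311 CPM in Par, 0.515, 0.564 and 0.375 CPM in LM2, and 0.730, 0.925 and 1.68 CPM in BrM2, the BrM2 libraries being above all others. Its difference of BrM2 from Par was 1.8 ± 0.41 on the log2 scale (SE, adjusted p = 0.019), lost without Par replicates 2 or 3 or BrM2 replicate 3 (adjusted p from 0.077 to 0.089). HOXC8 passed the filter on low counts in all BrM2 libraries, in 1 LM2 library and in no Par library, so its p-values for BrM2 are not independent of that choice. The difference of BrM2 from LM2 was 1.22 ± 0.39 (adjusted p = 0.1), with an adjusted p of 0.034 under the replicate block. HOXC9 had at most 6 counts and was not tested. HOXC4 had 2 to 5 counts in Par, 2 to 4 in LM2 and 5 to 11 in BrM2, and HOXC13 had no count in Par, 1 count in 1 LM2 library, and 0, 7 and 1 counts in BrM2.

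HOXA13 (ENSG00000106031, chromosome 7, 27194364 to 27200091) was the only gene of its cluster above the floor. It is the terminal HOXA gene, needed for limb and urogenital development. Its level was 1.17, 0.950 and 1.2 CPM in Par (22, 20 and 31 counts), 0.927, 2.06 and 1.27 CPM in LM2 (18, 51 and 34 counts), and 0.292, 0.528 and 0.336 CPM in BrM2 (4, 12 and 7 counts). Every BrM2 library lay below every other library, and the LM2 range held the whole Par range. HOXA13 fell by 1.46 ± 0.40 on the log2 scale in BrM2 against Par (SE, adjusted p = 0.043), and its log2 difference of BrM2 from LM2 was -1.83 ± 0.40 (adjusted p = 0.022). The first call held in 2 of 9 fits without 1 library, those without LM2 replicate 1 or 2, with adjusted p from 0.064 to 0.16 in the others and of 0.062 with no filter. The second was lost without LM2 replicates 2 or 3 or BrM2 replicates 1 or 3 (adjusted p from 0.051 to 0.11). HOXA13 passed the filter on low counts in all Par and LM2 libraries and in 1 of 3 in BrM2. It thus entered the test through the lines where it was high, and its p-values for BrM2 are not independent of that choice. LM2 against Par gave 0.37 (adjusted p = 0.67). HOTTIP, the non-coding gene that starts beside HOXA13, had 7, 3 and 6 counts in Par, 0, 5 and 2 in LM2, and 0, 2 and 2 in BrM2.

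The promoter of HOXA13 is shown because it was the called member with a RefSeq promoter entry, beside that of its silent neighbour HOXA11 and the shared start of HOXC4 and HOXC5. The third window also lies before the distal start of HOXC6, though it was entered under HOXC4 and HOXC5 only. Each is the 250 bases before the start in GRCh38.p14, written 5′ to 3′ on the gene's strand. Capitals mark a CCAAT box (CCAAT or its complement ATTGG) and a GC box (GGGCGG or its complement CCGCCC), searched on both strands.
HOXA13, chr7:27200092-27200341, minus strand: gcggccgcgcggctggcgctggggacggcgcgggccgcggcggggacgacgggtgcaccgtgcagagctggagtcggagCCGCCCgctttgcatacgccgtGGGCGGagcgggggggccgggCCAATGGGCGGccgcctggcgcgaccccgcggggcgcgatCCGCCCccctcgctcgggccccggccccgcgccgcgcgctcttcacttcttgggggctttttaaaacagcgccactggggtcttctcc
HOXA11, chr7:27185233-27185482, minus strand: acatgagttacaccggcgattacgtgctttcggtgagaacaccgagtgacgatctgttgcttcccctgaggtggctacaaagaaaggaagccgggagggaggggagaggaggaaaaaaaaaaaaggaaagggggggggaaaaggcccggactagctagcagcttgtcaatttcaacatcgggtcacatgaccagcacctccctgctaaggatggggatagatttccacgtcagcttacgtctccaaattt
HOXC4 and HOXC5, chr12:54016638-54016887, plus strand: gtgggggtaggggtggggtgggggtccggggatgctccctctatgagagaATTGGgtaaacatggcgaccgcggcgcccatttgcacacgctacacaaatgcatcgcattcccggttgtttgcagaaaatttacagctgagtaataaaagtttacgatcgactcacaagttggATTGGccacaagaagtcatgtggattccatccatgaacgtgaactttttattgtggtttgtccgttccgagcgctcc

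The HOXA13 window held 40 CpG dinucleotides, as many as or more than 98.3% of the 34788 promoter windows of the same length, with 1 CCAAT box and 4 GC boxes. The HOXA11 window held 11 CpG and neither motif, and the HOXC4 window 14 CpG and 2 CCAAT boxes. A CCAAT box was present in 32% of all windows and a GC box in 42.6%. Of the 37 members 20 had an entry, with 26 windows in all, of which 17 held a CCAAT box and 13 a GC box. Their median was 19.5 CpG against 11 over all windows. HOXB3, HOXB5, HOXB6, HOXB8, HOXB9 and HOXC6 had no entry under their own names. Of the 20 members with an entry 16 were at or under the floor in every library.

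HOXD4 and HOXD1 were the readable genes of the HOXD cluster. HOXD4 (ENSG00000170166, chromosome 2, 176151550 to 176153226), the paralog of HOXB4, had 10, 6 and 9 counts in Par, 8, 8 and 19 in LM2, and 6, 18 and 4 in BrM2, and the lines overlapped. Its log2 differences from Par were 0.34 in LM2 (adjusted p = 0.83) and 0.34 in BrM2 (adjusted p = 0.8). HOXD1 had 1, 6 and 2 counts in Par, 2, 0 and 0 in LM2, and 4, 2 and 0 in BrM2, and 60.1% of its exons overlap the non-coding HAGLR on the opposite strand.

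**Figure D3:**
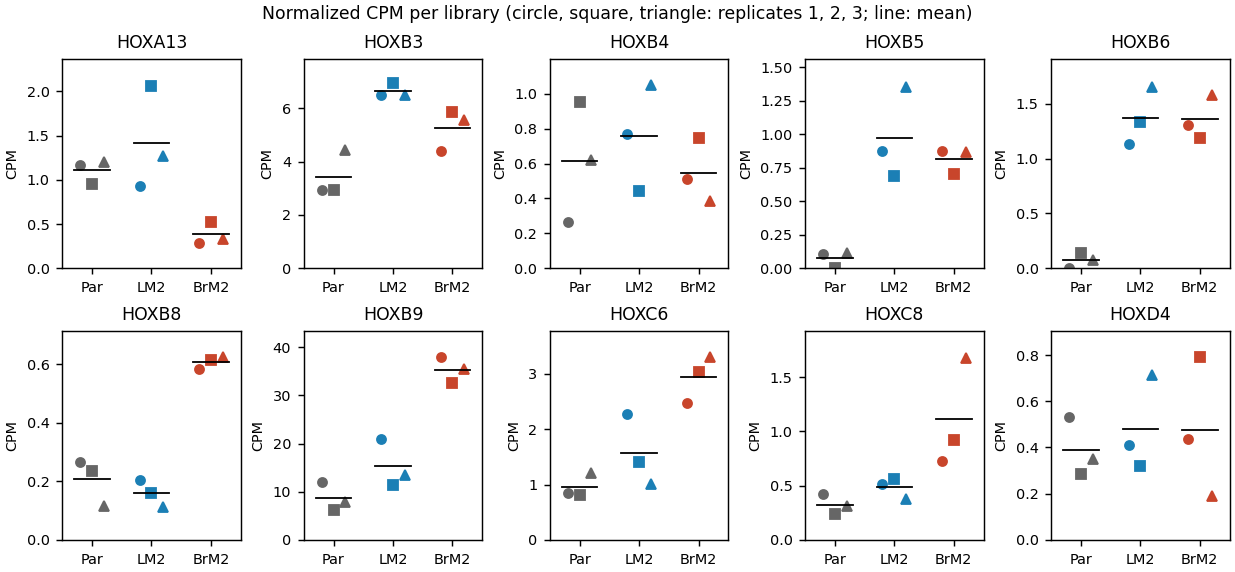
Level (CPM, vertical axes starting at 0, one scale per gene) in each library of Par, LM2 and BrM2 for the 9 members that could be tested and HOXC8; symbols mark replicates 1 to 3 and bars the means. The BrM2 libraries stand apart upward for HOXB8, HOXB9, HOXC6 and HOXC8 and downward for HOXA13, and the Par libraries stand apart downward for HOXB5 and HOXB6.

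Levels per kilobase were taken over all annotated exons of a gene, such as 7.425 kb for HOXB3 and 5.071 kb for HOXA13. The transcripts in use may be shorter, so these ranks depend on the annotation and compare genes only roughly. By this measure HOXB9 was first in all lines, at 3.37, 5.90 and 13.6 CPM per kilobase in Par, LM2 and BrM2. Its lowest library stood above the highest library of the next gene in each line. In Par HOXB3 came next at 0.463 CPM per kilobase and overlapped HOXD4 in its libraries. HOXD4, HOXB4, HOXC6, HOXA13 and HOXB7 followed from 0.343 down to 0.179, each overlapping the next. In LM2 HOXB3, at 0.893, stood apart from HOXB6 at 0.526, and from there to HOXB7 at 0.213 each gene overlapped its neighbour. In BrM2 each gene from HOXC6 at 0.851, through HOXB3 at 0.709 and HOXB6 at 0.523, to HOXB8 at 0.253 overlapped its neighbour. HOXA13 was sixth of 10 detected genes in Par, at 0.219, and 12th of 14 in BrM2, at 0.0760.

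Read by paralog number, group 4 had a gene above the floor in 3 clusters, HOXB4, HOXC4 and HOXD4, while its HOXA4 had no count. In group 6 HOXB6 and HOXC6 were both higher in BrM2 than in Par, and HOXA6 had no count. In group 8 HOXB8 and HOXC8 were both highest in BrM2, and HOXD8 had no count. In group 9 HOXB9 was abundant and HOXC9 had at most 6 counts, whereas HOXA9 and HOXD9 had no count in any library. In group 13 HOXA13 and, in 1 BrM2 library, HOXC13 were above the floor, and HOXB13 and HOXD13 had no count.

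A count minimum decided how many members entered a test. The filter modelled on HTSFilter, which kept genes with a normalized count over 47.15 in some library, left 13055 genes and only HOXB3, HOXB9 and HOXC6, the last at 71.3, with HOXA13 at 44.2 just outside. Of these 3 members 1 was called in LM2 against Par (8.69% of all genes tested were), 2 in BrM2 against Par (13.3%) and 1 in BrM2 against LM2 (8.1%), all higher in the line named first. With the replicate block the counts were 2 (34.5%), 3 (42.7%) and 2 (37.5%). The wider set left by edgeR's filterByExpr, with 15864 genes, tested 9 members and called 3 (8.3%), 6 (13.2%) and 3 (8.14%). With the block it called 4 (32%), 7 (39.6%) and 4 (34.3%). HOXC6 entered the first set through BrM2 and LM2 libraries only, and HOXB5, HOXB6 and HOXB8 entered the wider set only through lines where they were high. HOXA13 entered the wider set mainly through Par and LM2, where it was high. The counts of both sets are therefore no measure of how often HOX genes changed. Values of HOXB3, HOXB9 and HOXC6 above come from the first set and those of other members from the wider one. In the wider set without the block, the 3 members called in LM2 were higher than in Par, 5 of 6 in BrM2 were higher than in Par, and 2 of 3 were higher in BrM2 than in LM2, HOXA13 being the lower one each time.

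**Figure D4:**
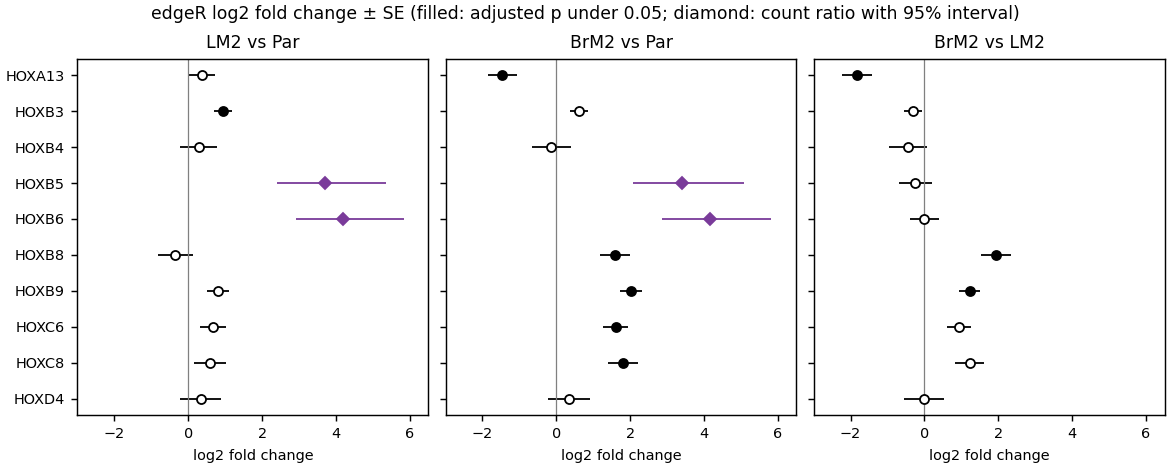
Log2 fold change with its SE from edgeR (horizontal axis) for the 9 tested members and HOXC8 in LM2 against Par, BrM2 against Par and BrM2 against LM2; filled circles have an adjusted p under 0.05 and open ones do not. Diamonds are log2 ratios of summed counts with exact 95% intervals for HOXB5 and HOXB6, which were at the floor in Par.

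Among the TALE partners of HOX proteins MEIS1 rose in BrM2. Of 8 TALE genes examined 6 were in the first gene set, and 1 rose and none fell in BrM2 against Par and again against LM2. That gene was MEIS1, which entered the set through BrM2 libraries only, so these tallies are not independent of the filter. In LM2 against Par edgeR called 0 (3 at an unadjusted p under 0.05, and 1 by DESeq2). The medians of the 6 log2 differences were 0.15 for LM2 against Par, 0.26 for BrM2 against Par and -0.08 for BrM2 against LM2, beside 0.01, -0.02 and -0.03 over all genes tested. With the block 1 rose and 1 fell in LM2, 2 rose and 1 fell in BrM2 against Par, and 2 rose and none fell against LM2.

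MEIS1, a partner of both PBX and HOX proteins, had means of 0.450 CPM in Par, 0.911 in LM2 and 2.56 in BrM2. It rose in BrM2, by 2.49 against Par (adjusted p = 0.0029) and by 1.47 against LM2 (adjusted p = 0.037), and LM2 against Par gave 1.01 (adjusted p = 0.18). MEIS1 entered the first gene set through BrM2 libraries only, the line where it was high, so these p-values are not independent of that choice. In the wider set MEIS3 was lower in BrM2, with means of 1.2, 0.971 and 0.182 CPM in Par, LM2 and BrM2. Its log2 differences were -2.82 from Par (adjusted p = 0.015) and -2.5 from LM2 (adjusted p = 0.039). MEIS3 passed the filter in Par and LM2 libraries only, where it was high, so its p-values are not independent of that choice either. PKNOX2 was at the floor in BrM2, with a ratio of summed counts in Par over BrM2 of 9.83 and a counting interval of 3.58 to 37.6. Its edgeR adjusted p for BrM2 against Par was 0.011. LM2 was low too, with means of 0.689, 0.181 and 0.0627 CPM in Par, LM2 and BrM2. LM2 against Par gave -1.95 (adjusted p = 0.058, or 0.015 with the block), and BrM2 against LM2 gave -1.25 (adjusted p = 0.42). PKNOX2 passed the filter in Par libraries only, the line where it was high, so the p-values against Par are not independent of that choice. PBX2, PBX3, PBX4, MEIS2 and PKNOX1 passed in no comparison without the block.

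**Figure D5:**
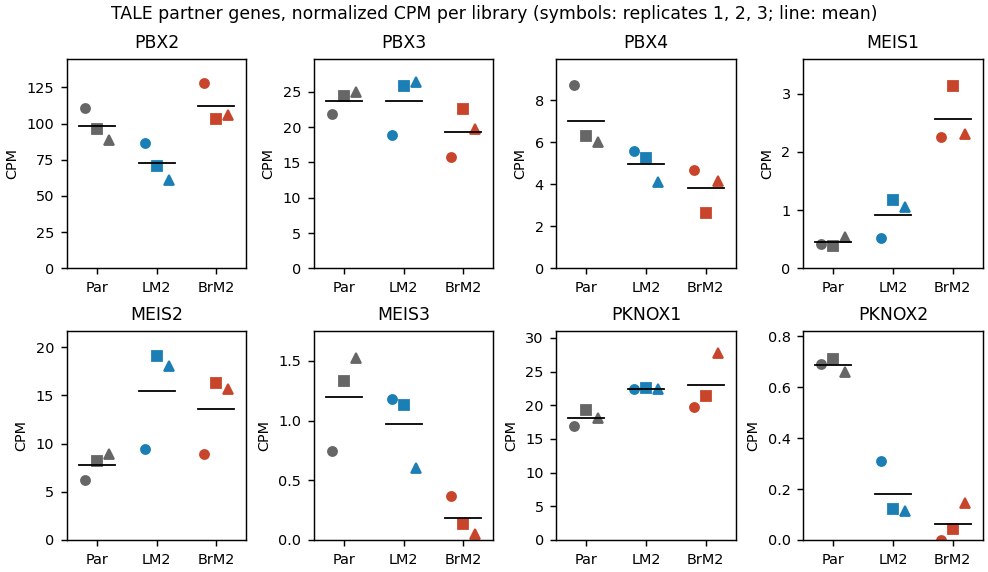
Level (CPM, vertical axes starting at 0, one scale per gene) of 8 TALE partner genes in each library of Par, LM2 and BrM2; symbols mark replicates 1 to 3 and bars the means. MEIS1 steps up from 0.450 to 0.911 to 2.56 CPM, and MEIS3 is lowest in BrM2, at 0.182 CPM.

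Of 24 non-coding genes of the clusters 13 had no count, among them HOTAIRM1 and HOXA-AS3 in HOXA and the miR-196 genes, whose short mature products these libraries would not read. HOXB-AS3, which runs opposite HOXB5 and HOXB6, had 0, 2 and 1 counts in Par, 27, 35 and 60 in LM2, and 13, 46 and 47 in BrM2. Both metastatic lines were above Par, with ratios of summed counts of 37.6 (interval 12.6 to 185) in LM2 and 40.5 (13.5 to 199) in BrM2 and adjusted p of 0.002 and 0.0013. It too entered the test only through libraries of the metastatic lines. With 30.1% of its exons opposite HOXB3, HOXB5 and HOXB6, its reads and theirs could not be separated there. HAGLR, which runs opposite HOXD1, measured 10.6, 18.7 and 16.5 CPM and rose in LM2 by 0.82 (adjusted p = 0.038), while BrM2 gave 0.64 (adjusted p = 0.074, or 0.0059 with the block). HOTAIR, at most 0.0336 CPM in a line's mean, was not read above the floor.

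Few regulators of the clusters passed the edgeR test without the block. Of 29 Polycomb subunits, all tested, 1 fell in LM2, and 1 rose and 1 fell in BrM2 against Par. At an unadjusted p under 0.05 the counts were 2 in LM2 and 3 in BrM2, and DESeq2 called 2 and 3. The medians were -0.02 and -0.01, beside 0.01 and -0.02 over all genes, and with the block 1 rose and 6 fell in LM2 and 3 rose and 4 fell in BrM2. PHC1, a subunit of the canonical repressive complex 1, rose in BrM2 from 7.83 to 24.3 CPM (log2 fold change 1.63, adjusted p = 0.002), and stood above LM2, at 8.27 CPM, by 1.57 (adjusted p = 0.0036). RBBP7, a histone-binding protein shared by several complexes, fell from 360 CPM to 194 in LM2 (-0.90, adjusted p = 0.015) and 198 in BrM2 (-0.86, adjusted p = 0.013). Of 12 subunits of MLL/COMPASS and related enzymes none passed in LM2 by edgeR (0 at an unadjusted p under 0.05 and 0 by DESeq2). In BrM2 against Par edgeR called 1, with 3 at an unadjusted p under 0.05 and 3 by DESeq2. The gene called by edgeR was KDM6A, an eraser of the Polycomb mark, which fell from 46.1 to 19.7 CPM (-1.23, adjusted p = 0.012). The medians were -0.03 and 0.01, and with the block 1 rose in LM2 and 2 rose and 2 fell in BrM2.

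CDX1, CDX2, CDX4, EVX1 and EVX2, homeobox genes that regulate or flank HOX clusters in the embryo, had no count in any library. Of 20 genes flanking the clusters 16 were tested in the first set and none passed in any comparison by edgeR without the block, with medians of 0.03, -0.16 and -0.20. At an unadjusted p under 0.05 the counts were 0 for LM2 against Par, 2 for BrM2 against Par and 1 for BrM2 against LM2, and DESeq2 called 0, 0 and 1. With the block 2 rose and 1 fell in LM2, 1 rose and 7 fell in BrM2 against Par, and 1 rose and 3 fell in BrM2 against LM2. In the wider set SKAP1, on the side of HOXB1, was higher in BrM2 than in Par by 2.12 (adjusted p = 0.036) and than in LM2 by 2.19 (adjusted p = 0.044), with means of 0.182, 0.180 and 0.807 CPM. SKAP1 passed the filter on low counts in BrM2 libraries only, the line where it was high.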

How the data were processed

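Libraries were made by the authors from RNA of Par, LM2 and BrM2 cells with a stranded mRNA kit and sequenced as paired ends, and reads were aligned to hg38 and counted per gene with STAR 2.7.0, as the methods and labels state. The deposited counts are whole reads, not normalized, and the strand counted is not given in the sources used here. The table of the authors' own DESeq2 comparisons was not used. Of 58887 rows, 3 repeated an identifier with the same values and were kept once.

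Genes were tested in R 4.3.3 with the 2-sided quasi-likelihood test of edgeR 4.0.16, TMM normalization, using one model of all 9 libraries with a mean per line. Benjamini-Hochberg adjustment ran over all genes of a set, and the threshold was 0.05. The first set followed HTSFilter (100 thresholds from 1 to 200, loess span 0.3). The wider set came from filterByExpr with a minimum count of 10. CPM were scaled over all genes, and exon lengths and overlaps came from GENCODE v44 lifted to GRCh37. Positions came from RefSeq on GRCh38.p14. Where a line was at or under 3 counts in every library, the ratio of summed counts was given with an exact 95% conditional interval. Reads carry no molecular identifiers, so intervals cover counting error only.

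Replicate numbers were also used as a block. For all 9 pairs of libraries with a shared number the correlation of deviations from the line means was over 0.1 (0.24 to 0.91). Pairs with different numbers were not compared, so these values do not establish that the libraries were paired. With that block the common dispersion was 0.021, against 0.11 without it. The study's methods name no block, so the fit without it is given first. The alternatives were the block, RLE factors, DESeq2 1.42.0, other filters and leaving out libraries or replicate numbers. Those run within the wider set were chosen after seeing the data. Scripts were tested on simulated counts.

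The members and gene lists were chosen with earlier results of these data known. Some items are not reported here. The members are accounted for by class, and those with an adjusted p under 0.05 in any comparison, with or without the block, are given in full. From each list at most 4 genes with the smallest adjusted p are named with values, besides neighbours of a member.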

Additional observations from a re-analysis of the deposited data

Results flagged for a closer look

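For 3 members the change from Par in one metastatic line differed from that in the other, as tested directly by edgeR between BrM2 and LM2. HOXB9 was 1.22 higher in BrM2 than in LM2 on the log2 scale (SE 0.29, adjusted p = 0.036), with every BrM2 library above every LM2 library. The HOXB9 call held in only 3 of 9 fits without 1 library. HOXB8 was 1.93 higher (SE 0.41, adjusted p = 0.02), from 8 to 14 counts in BrM2 against 3 to 4 in LM2. HOXB8 passed the filter on low counts in BrM2 libraries only, so this p is not independent of how the gene was chosen, and with no filter it was 0.078. HOXA13 differed by -1.83 (SE 0.40, adjusted p = 0.022), lower in BrM2 in all 3 libraries. It entered the test through the lines where it was high, so its p is not independent of that choice either. The HOXB8 and HOXA13 calls each held in 5 of 9 fits without 1 library. None of the 3 calls held without replicate 2 or without replicate 3 in all lines (edgeR adjusted p from 0.26 to 0.55).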

How the results depend on the processing

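Counts of called members depended on the filter and on the replicates. In the first gene set 1, 2 and 1 members were called in LM2 against Par, BrM2 against Par and BrM2 against LM2. These counts became 2, 4 and 2 with no filter and 3, 6 and 3 with filterByExpr, settings that test more members. With the replicate block, which takes up differences shared by a replicate number, they were 2, 3 and 2. With RLE factors and DESeq2 they stayed 1, 2 and 1. Without 1 library the counts ranged over 0 to 1, 1 to 2 and 0 to 2, and in the wider set over 2 to 3, 3 to 6 and 0 to 4. Without 1 replicate number in all lines they ranged over 0 to 2 for each comparison in the first set, and over 0 to 4, 0 to 6 and 0 to 4 in the wider set. The 0 came without replicate 2 and without replicate 3, fits of 2 libraries a line, where edgeR left 2, 6 and 3 members (without replicate 2) and 4, 4 and 3 (without replicate 3) of the wider set at an unadjusted p under 0.05. HOXB9 in BrM2 against Par then had adjusted p of 0.1 and 0.12, and HOXB5 and HOXB6 against Par from 0.06 to 0.15. None of the 17 log2 fold changes recomputed, those called with or without the block, reversed under the alternatives run, and the block gained a call for HOXB3, HOXB9, HOXC6 and HOXC8 in 1 comparison each and lost none. The cause of these shifts was not tested. Depth limits what can be read: 23 of 37 members never exceeded 3 counts, and HOXB8 and HOXA13 rest on 3 to 14 and 4 to 51 counts a library.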
